A study of Mus musculus with 6 samples.

Results

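Fatty acid oxidation is the main source of energy in the fasted liver. The genes described here are 31 genes of fatty acid oxidation enzymes and carriers, listed by name for their place in the pathway. They were found through the accessions of the array's probes in the RefSeq gene table of GRCm38, and all 31 had a probe: 24 genes had 1 probe, 5 had 2 and 2 had 3, which made 40 of the 55681 probes. The array names 20284 genes in all by this route. By the place of the protein, 16 are mitochondrial, 5 peroxisomal and 4 microsomal, 2 are found in both mitochondria and peroxisomes, and 4 act elsewhere, in the cytosol, at the plasma membrane or on more than 1 membrane.

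Liver RNA came from 3 Gα12 KO mice, which lack Gα12, and from 3 wild-type (WT) mice, and each liver was hybridised to its own 1-colour Agilent mouse array. Gα12 is a G protein α subunit that carries signals from cell surface receptors, and its gene is Gna12. All 6 mice were male, 8 weeks old, of mixed C57BL/6 and 129/Sv strain (given as 95% C57BL/6), kept on chow and fasted overnight before their livers were taken. The labels give neither the part of Gna12 that was deleted nor the cells in which it was, so effects inside and outside hepatocytes cannot be told apart, and in whole liver fewer cells of a type and less RNA per cell cannot be told apart either.

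In outline, a fatty acid is bound and activated to an acyl-CoA, passed into the mitochondrion as a carnitine ester, and shortened by repeated rounds of dehydrogenation, hydration, a further oxidation and thiolysis. Peroxisomes run a parallel pathway for very long and other poorly used chains, and the endoplasmic reticulum, which yields the microsomes, oxidises the far end of the chain (omega oxidation). Many of these genes are known targets of PPARα, a nuclear receptor that fatty acids activate in fasting and that binds DNA, together with RXR, at a direct repeat of the half-site AGGTCA with 1 base between the copies.

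Levels below are log2 signals after subtraction of each array's 75th percentile, and a gene is represented by its brightest probe. They serve to compare arrays for 1 gene, not genes with each other. Differences are Gα12 KO minus WT on the log2 scale. Of the probes on an array, 20953 to 22585 were well above background in Gα12 KO livers, against 22951, 23530 and 28752 in WT replicates 1 to 3. WT replicate 3 also had the highest 75th percentile of log2 signal before subtraction, 9.09, beside 7.80 to 8.63 on the other arrays. Spots marked as non-uniform numbered 90 to 152 on Gα12 KO arrays and 2 to 6 on WT arrays. The WT arrays lay in row 1 of the slide and the Gα12 KO arrays in row 2, so an effect of the row and one of the genotype cannot be told apart. WT replicates 1 and 2 stood apart: they correlated with each other at r = 0.9735 across the probes tested and with the Gα12 KO arrays at 0.8689 to 0.9295. For WT replicate 3 and the Gα12 KO arrays the range was 0.9661 to 0.9822 (probes are not independent replicates). Differences of the members are therefore also given without WT replicates 1 and 2, which leaves 1 WT liver. The only Gna12 probe was well above background on 1 array, WT replicate 3, and so was a weak check of the genotype labels. The liver label was borne out by hepatocyte markers, of which 13 of 14 listed were measured. The log2 of their summed signal was 13.28 to 13.68 in Gα12 KO livers and 13.01 to 13.92 in WT livers.

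In the main fit with all 6 arrays, no member passed the test after adjustment. The shares of members past each descriptive threshold in that fit lay below those over all named genes. The limma test over all 23132 probes kept called 0 of the 31 at an adjusted p below 0.05, with adjusted p-values of 0.235 to 0.989. It called 0 of all 12297 named genes as well, so the background was 0% called too (4861 probes had an unadjusted p below 0.05). At an unadjusted p below 0.05, 2 members were lower in Gα12 KO livers, Etfdh and Acaa1b, which is 6.45% of members against 16.6% of all named genes. None of the 31 was higher at that level, against 3.98% of all named genes. Limma with trend and robust estimation also called 0 members and had 4 lower at an unadjusted p below 0.05 (12.9%, beside 17.2% of all named genes). After normexp background correction 9 members were lower at that level, 29% beside 21.1%, so the order of the shares turned. Leaving out 1 array at a time left 0 members lower at that level without Gα12 KO replicate 2 or 3 (beside 4.5% and 8.39% of all named genes) and 1 without WT replicate 1 or 2 (3.23%, beside 5.42% and 4.72%). Without Gα12 KO replicate 1 there were 2 (6.45%, beside 6.42%), and without WT replicate 3 there were 12 (38.7%, beside 54.8%).

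Every Gα12 KO liver lay below every WT liver for 6 members (19.4%, against 21.1% of all named genes): Acadm, Etfdh, Hadhb, Acaa2, Ech1 and Acaa1b. The reverse held for 1 member, Decr2 (3.23%, against 4.42% of all named genes). The order of the lower shares turned under several but not all alternatives with all 6 arrays. Members had 22.6% beside 18.5% after quantile normalization, 22.6% beside 20.8% after normexp and 19.4% beside 14.1% without a filter on dim probes. With probes of a gene averaged it was 22.6% beside 21.2%, and with median scaling over the probes kept 6.45% beside 16.2%. The median difference of the members was -0.41, beside -0.49 over all named genes, and 22 of the 31 differences were negative, as were 72.3% of those of all named genes. The median over all named genes depends on the scaling: it was -0.21 after quantile normalization and -0.36 with median scaling over the probes kept, where the member medians were -0.03 and -0.27. The WT livers varied more among themselves: the median SD of the members was 0.20 in Gα12 KO livers and 0.58 in WT livers (n = 3 each), beside 0.19 and 0.65 over all named genes. Without WT replicates 1 and 2 the member median was -0.18, beside -0.03 over all named genes, and 12 of the 31 differences turned in sign. Without WT replicate 3 instead, limma called 15 members (48.4%), beside 62.2% of all named genes, so the count of calls rested on that single array.

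**Figure D1:**
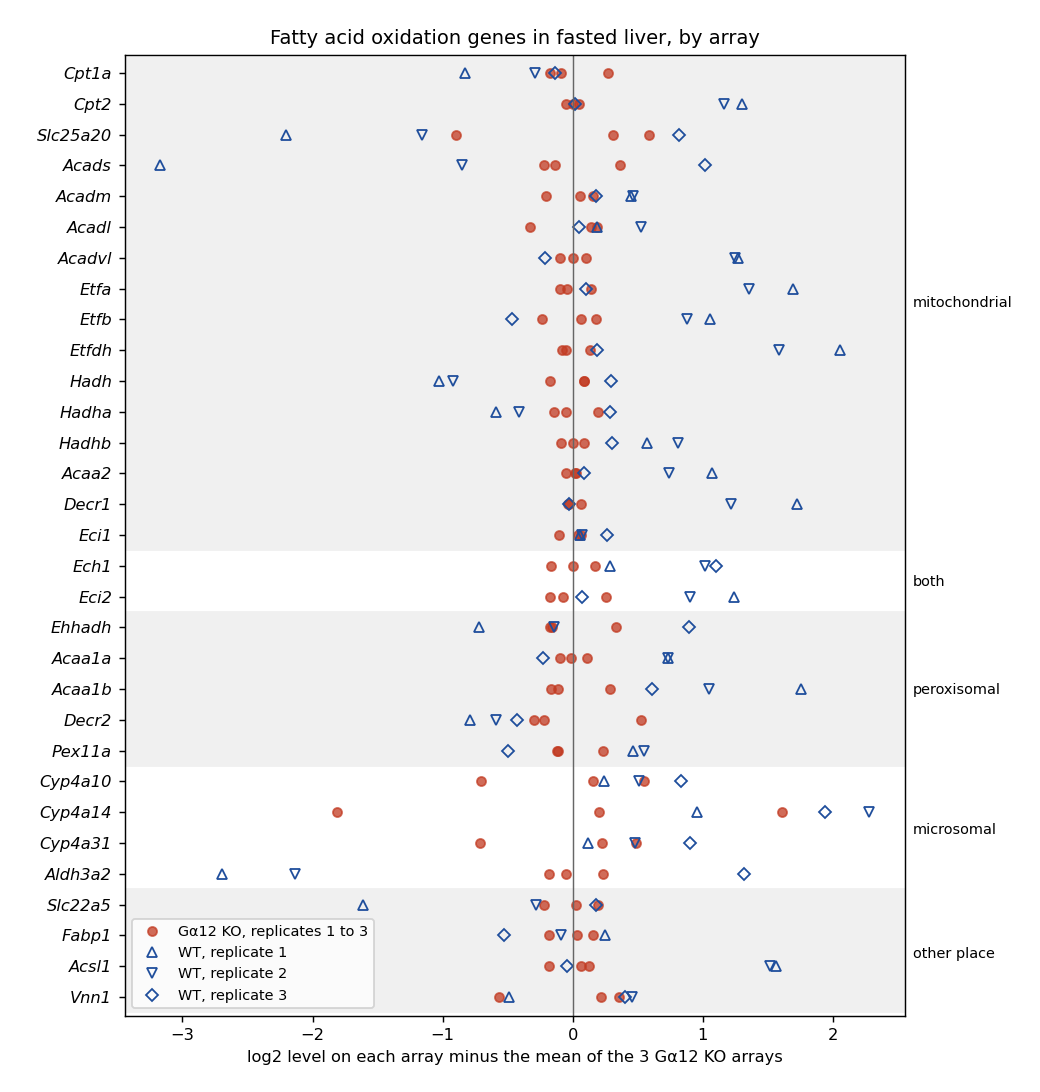
Level of each member on each array, as the log2 level minus the mean of the 3 Gα12 KO arrays. Rows are genes grouped by the place of their protein, filled circles are Gα12 KO livers and open symbols WT livers. The Gα12 KO points lie close together for most genes, while WT replicates 1 and 2 (triangles) lie together and often far from WT replicate 3 (diamonds), for Aldh3a2 and Acads far below it and for Etfdh and Acsl1 far above it.

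Genes with several probes showed how WT replicates 1 and 2 differed. Of 7 such members, 5 had probes whose differences were of opposite sign: Cpt2, Acsl1, Etfa, Cyp4a10 and Cyp4a31. For Cpt2 the brighter probe had 5.21, 5.26 and 5.16 in Gα12 KO livers, against 6.51, 6.37 and 5.23 in WT livers, and the dimmer probe -0.01, -0.04 and 0.37 in Gα12 KO livers, against -3.75, -2.69 and 1.15 in WT livers. The dimmer probe thus put WT replicates 1 and 2 far below every other liver and the brighter probe put them above. The log2 span between the brightest and dimmest probe of Cpt2 was 4.78 to 5.30 on Gα12 KO arrays, against 9.06 on WT replicate 2 and 4.08 on WT replicate 3. On WT replicate 1 the dimmer Cpt2 probe was not well above background, and neither was the dimmest Cyp4a31 probe, so their spans there have no exact value. Acsl1 spanned 2.88 to 3.35 on Gα12 KO arrays and 6.09, 5.57 and 2.68 on WT replicates 1 to 3. In all 7 genes the span was wider on WT replicates 1 and 2 than on the other 4 arrays. The 7 probes of Gapdh, a glycolytic gene used only as a check, spanned 4.36 to 4.87 on Gα12 KO arrays and 9.58, 7.79 and 4.01 on WT replicates 1 to 3. The part of this widening in the differences of members with a single probe was not tested.

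**Figure D2:**
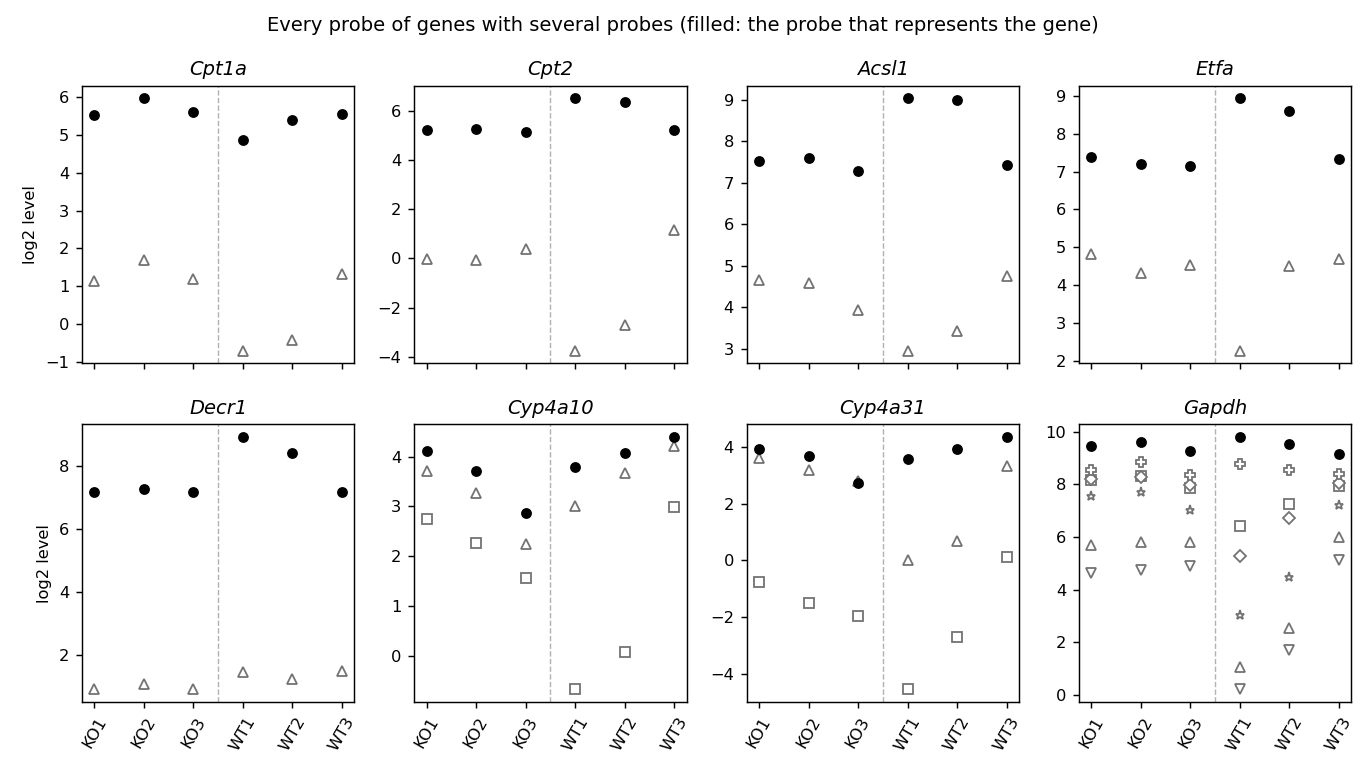
Log2 level of every probe of the 7 members with several probes, and of Gapdh, on each array (Gα12 KO replicates 1 to 3, then WT replicates 1 to 3). Filled circles are the brightest probe, which represents the gene, and open symbols are the others. The span between the brightest and the dimmest probe is wider on WT replicates 1 and 2 than on the other 4 arrays in each panel. The dimmest probes of Cpt2 and Cyp4a31 were not well above background on WT replicate 1.

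Carriers that supply and shuttle the chain gave no common direction. Cpt1a encodes the carnitine palmitoyltransferase of the outer mitochondrial membrane, the step at which entry is controlled. It had 5.52, 5.96 and 5.60 in Gα12 KO livers, against 4.87, 5.40 and 5.56 in WT livers. The groups overlapped, with WT replicate 1 lowest and Gα12 KO replicate 2 highest. The difference was 0.42 (SE 0.34, limma adjusted p = 0.403) and 0.13 without WT replicates 1 and 2. Its dimmer probe gave 1.27 (SE 0.56), again with WT replicates 1 and 2 lowest.

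Cpt2, whose enzyme of the inner membrane re-forms the acyl-CoA, differed by -0.83 (SE 0.41) with its brighter probe, and by -0.02 without WT replicates 1 and 2. Slc25a20, the carrier that exchanges acylcarnitine for carnitine, had 2.48, 1.0 and 2.21 in Gα12 KO livers, against -0.30, 0.74 and 2.71 in WT livers. Its difference of 0.85 (SE 0.77) became -0.81 without WT replicates 1 and 2, with WT replicate 3 the highest of all livers. Slc22a5, the plasma membrane carnitine transporter, likewise gave 0.57 (SE 0.49) and -0.18.

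Fabp1, the abundant liver fatty acid binding protein, differed little. It had 9.82, 9.94 and 9.61 in Gα12 KO livers, against 10.04, 9.70 and 9.26 in WT livers, a difference of 0.12 with a 95% interval from -0.66 to 0.91. WT replicate 3 was below all Gα12 KO livers, and the difference was 0.53 against that liver alone and -0.08 without it. Acsl1, the major long-chain acyl-CoA synthetase of liver, had 7.53, 7.59 and 7.29 in Gα12 KO livers, against 9.04, 8.99 and 7.43 in WT livers. WT replicates 1 and 2 were high and WT replicate 3 lay among the Gα12 KO livers, so that the difference was -1.01 (SE 0.48) with all arrays and 0.04 without those 2. Its second probe gave 0.68 (SE 0.51).

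The promoter of Fabp1 was the only 1 of 26 promoters of 25 members with a RefSeq entry that held the PPARα type of repeat, searched on both strands as AGGNCANAGGNCA in the 250 bases before the start. That is 3.85% of member promoters, beside 0.338% of the 32851 promoters in the table, and it rests on 1 match. The entry is from GRCm38.p6, chr6:71199629-71199878 on the + strand. In capitals are the repeat, read on the other strand at 67 to 55 bases before the start, and the TATA box TATAAA at 30 to 25 bases before it.
Fabp1: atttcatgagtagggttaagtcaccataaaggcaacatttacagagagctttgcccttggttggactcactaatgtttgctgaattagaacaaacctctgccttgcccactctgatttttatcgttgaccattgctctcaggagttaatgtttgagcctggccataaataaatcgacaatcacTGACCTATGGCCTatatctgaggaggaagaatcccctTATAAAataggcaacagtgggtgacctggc
The simple half-site AGGTCA was in 4 member promoters (15.4%, beside 14% of all promoters), those of Acadm, Acadvl, Cpt1a and Fabp1. Acaa2, Cyp4a10, Cyp4a14, Cyp4a31, Decr1 and Vnn1 had no entry. A match describes the letters of the window and nothing about binding.

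The acyl-CoA dehydrogenases, which take chains of different length and begin each round, split by gene. Acadm, for medium chains, had 7.11, 7.02 and 6.75 in Gα12 KO livers, against 7.41, 7.43 and 7.14 in WT livers. Every Gα12 KO liver was below every WT liver, with WT replicate 3 only just above them, and the difference was -0.36 (SE 0.30, limma adjusted p = 0.415), which after quantile normalization was 0.14. Relative to the median of all named genes it was 0.13, and without WT replicates 1 and 2 it was -0.18. Acads, for short chains, had 2.35, 2.44 and 2.93 in Gα12 KO livers, against -0.60, 1.72 and 3.59 in WT livers. Its difference of 1.0 (SE 0.93) rested on WT replicate 1, without which it was -0.08, and it was -1.02 without WT replicates 1 and 2. Acadvl, for very long chains, differed by -0.77 (SE 0.46) and by 0.21 without WT replicates 1 and 2. Acadl, for long chains, differed by -0.25 (SE 0.33), by 0.19 after quantile normalization and by -0.05 without WT replicates 1 and 2.

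Electrons from these dehydrogenases pass through the electron transfer flavoprotein, made of the Etfa and Etfb products, to its oxidoreductase in the inner membrane, encoded by Etfdh. Etfdh had 6.12, 5.91 and 5.94 in Gα12 KO livers, against 8.04, 7.58 and 6.18 in WT livers. The groups did not overlap, but WT replicate 3 was only just above the nearest Gα12 KO liver while WT replicates 1 and 2 were far above. The difference was -1.28 (SE 0.50, limma unadjusted p = 0.0347, adjusted p = 0.235), or a 2.42-fold lower signal in Gα12 KO livers. It was -0.78 relative to all named genes and -0.19 without WT replicates 1 and 2. In Etfa, WT replicate 3 lay among the Gα12 KO livers, with 7.38, 7.19 and 7.14 in Gα12 KO livers, against 8.93, 8.59 and 7.33 in WT livers, and a difference of -1.05 (SE 0.46) that was -0.10 without those 2 arrays. Its second probe gave 0.73 (SE 0.64). Etfb differed by -0.49 (SE 0.46) and, since WT replicate 3 was below all Gα12 KO livers, by 0.47 without those 2. The median of the 3 genes was -1.05 with all arrays, the lowest of the roles with more than 1 gene, and -0.10 without WT replicates 1 and 2.

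The next enzymes of the mitochondrial round also differed in direction. Hadha and Hadhb encode the α and β subunits of the trifunctional protein of the inner membrane. Hadha had 3.30, 3.54 and 3.21 in Gα12 KO livers, against 2.76, 2.94 and 3.64 in WT livers, a difference of 0.24 (SE 0.35) with groups that overlapped. Hadhb had 5.96, 5.87 and 6.05 in Gα12 KO livers, against 6.53, 6.77 and 6.27 in WT livers, with every Gα12 KO liver below every WT liver and a difference of -0.56 (SE 0.31, limma adjusted p = 0.269). Against WT replicate 3 alone the values of the subunits were -0.29 for Hadha and -0.30 for Hadhb. Acaa2, the mitochondrial thiolase, had 9.20, 9.21 and 9.13 in Gα12 KO livers, against 10.26, 9.92 and 9.27 in WT livers. Its groups did not overlap, WT replicate 3 was only just above the nearest Gα12 KO liver, and the difference was -0.63 (SE 0.35) with all arrays and -0.09 without WT replicates 1 and 2. Hadh, which oxidises short hydroxyacyl-CoAs, differed by 0.55 (SE 0.42), and by -0.30 without WT replicates 1 and 2. WT replicate 3, a single liver, was above all Gα12 KO livers for each of these 4 genes, beside 32.6% of all named genes.

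Unsaturated chains need extra reductases and isomerases. Among these the differences of Ech1 and Eci1 were no smaller without WT replicates 1 and 2 than with them. Ech1, a dienoyl-CoA isomerase found in mitochondria and peroxisomes, had 5.33, 5.51 and 5.16 in Gα12 KO livers, against 5.62, 6.35 and 6.44 in WT livers. All WT livers were above all Gα12 KO livers, and WT replicate 3 was the highest. The difference was -0.80 (SE 0.35, limma unadjusted p = 0.0522, adjusted p = 0.238), a 1.74-fold lower signal, and -1.10 without WT replicates 1 and 2 (limma unadjusted p = 0.0084, adjusted p = 0.603). It was negative under each of the 16 alternatives run, at -0.34 after quantile normalization. Eci2, an enoyl-CoA isomerase of both organelles, differed by -0.74 (SE 0.39) and by -0.07 without WT replicates 1 and 2. Eci1, its mitochondrial relative, was nearly level, at -0.13 with a 95% interval from -0.81 to 0.55, and its sign turned after quantile normalization (0.38) and with median scaling over the probes kept (0.01). Without WT replicates 1 and 2 it was -0.26.

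Decr1 and Decr2 encode the mitochondrial and the peroxisomal dienoyl-CoA reductase. Decr1 had 7.18, 7.28 and 7.19 in Gα12 KO livers, against 8.94, 8.43 and 7.19 in WT livers, and its difference of -0.97 (SE 0.47) was 0.03 without WT replicates 1 and 2. Its second probe gave -0.42 (SE 0.29), with every Gα12 KO liver below every WT liver on that probe. Decr2 was the only member with every Gα12 KO liver above every WT liver. It had 4.51, 5.34 and 4.59 in Gα12 KO livers, against 4.02, 4.22 and 4.38 in WT livers, with Gα12 KO replicate 2 well above the others. The difference was 0.60 (SE 0.35, limma adjusted p = 0.288), a 1.52-fold higher signal, and 0.43 without WT replicates 1 and 2. Without Gα12 KO replicate 2 it was 0.34. It was positive under each of the 16 alternatives run.

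In the peroxisome, the pair of thiolase genes gave different values. Acaa1b encodes thiolase B, known to respond strongly to PPARα activators in mice, and Acaa1a encodes the closely related thiolase A. Acaa1b had 6.45, 6.00 and 6.06 in Gα12 KO livers, against 7.92, 7.22 and 6.78 in WT livers. The groups did not overlap and WT replicate 3 was the lowest WT liver. The difference was -1.14 (SE 0.39, limma unadjusted p = 0.0197, adjusted p = 0.235), a 2.2-fold lower signal, -0.64 relative to all named genes and -0.61 without WT replicates 1 and 2. It had the lowest p of the members and was negative under each of the 16 alternatives run. Acaa1a had 7.60, 7.80 and 7.69 in Gα12 KO livers, against 8.42, 8.43 and 7.47 in WT livers, so that WT replicate 3 was below all Gα12 KO livers and WT replicates 1 and 2 above. Its difference was -0.41 (SE 0.37) with all arrays, 0.23 without WT replicates 1 and 2, and 0.10 after quantile normalization. Whether the probes tell these related transcripts apart was not tested.

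The promoters of the thiolase genes are shown because the pair are close relatives on the same chromosome and gave different values. Those of Etfdh and Ech1 are added because, like Acaa1b, these genes were lower in every Gα12 KO liver than in every WT liver, with unadjusted p-values among the lowest of the members. All are 250 bases before the start, from RefSeq for GRCm38.p6. Capitals mark the CCAAT box (CCAAT, or ATTGG on the other strand) and the GC box (GGGCGG, or CCGCCC on the other strand). Acaa1a is at chr9:119341044-119341293 (+), Acaa1b at chr9:119157094-119157343 (-), Etfdh at chr3:79628768-79629017 (-) and Ech1 at chr7:28825088-28825337 (+).
Acaa1a: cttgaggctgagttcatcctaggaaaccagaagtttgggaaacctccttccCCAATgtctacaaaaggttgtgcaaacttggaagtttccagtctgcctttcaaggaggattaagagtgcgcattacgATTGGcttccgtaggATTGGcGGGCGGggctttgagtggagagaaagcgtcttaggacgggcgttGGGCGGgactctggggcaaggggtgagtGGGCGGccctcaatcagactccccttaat
Acaa1b: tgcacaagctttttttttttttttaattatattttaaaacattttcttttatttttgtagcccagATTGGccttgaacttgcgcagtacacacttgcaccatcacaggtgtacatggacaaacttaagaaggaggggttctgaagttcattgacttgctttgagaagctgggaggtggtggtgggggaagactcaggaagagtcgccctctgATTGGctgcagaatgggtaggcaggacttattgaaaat
Etfdh: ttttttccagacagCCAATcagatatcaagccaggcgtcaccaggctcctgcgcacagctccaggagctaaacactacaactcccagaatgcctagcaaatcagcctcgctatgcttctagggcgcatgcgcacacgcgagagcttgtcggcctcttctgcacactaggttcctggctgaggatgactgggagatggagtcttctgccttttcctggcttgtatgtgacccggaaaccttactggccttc
Ech1: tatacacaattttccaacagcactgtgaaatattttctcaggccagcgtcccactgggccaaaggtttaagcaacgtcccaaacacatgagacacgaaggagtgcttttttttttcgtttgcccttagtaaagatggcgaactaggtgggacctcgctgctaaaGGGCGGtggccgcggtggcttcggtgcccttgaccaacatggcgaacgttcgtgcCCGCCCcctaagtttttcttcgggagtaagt
The Acaa1a window held 3 CCAAT boxes and 3 GC boxes, and the Acaa1b window 2 CCAAT boxes and no GC box. Aligned end to end, the windows were identical at 148 of 288 columns (51.4%), and GC content was 53.6% for Acaa1a and 41.6% for Acaa1b. Over the members, 17 of 26 promoters held a GC box (65.4%, beside 32.7% of all promoters) and 11 a CCAAT box (42.3%, beside 33.8%). None of these 4 windows held the PPARα type of repeat or TATAAA.

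Ehhadh encodes the bifunctional enzyme that precedes the thiolase in the peroxisome, and is another well-known PPARα target. It had 4.57, 4.08 and 4.07 in Gα12 KO livers, against 3.52, 4.10 and 5.13 in WT livers. WT replicate 3 was above all Gα12 KO livers, WT replicate 1 was below them, and the difference was -0.01 with a 95% interval from -1.08 to 1.06. The sign turned to positive after normexp (0.03), after quantile normalization (0.42) and with median scaling over the probes kept (0.13), and without WT replicates 1 and 2 the value was -0.89 (limma unadjusted p = 0.0394, adjusted p = 0.668). Pex11a, which acts in peroxisome division, differed by -0.17 (SE 0.38), by 0.32 after quantile normalization and by 0.49 without WT replicates 1 and 2.

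On the brightest probes of the microsomal Cyp4a genes the Gα12 KO livers varied more than the WT livers. Cyp4a10, Cyp4a14 and Cyp4a31 are cytochrome P450 genes whose enzymes hydroxylate the far end of fatty acids, and they are classic PPARα targets in mouse liver. Cyp4a14 had 2.68, 1.26 and -0.74 in Gα12 KO livers, against 2.02, 3.35 and 3.00 in WT livers. Gα12 KO replicate 3 was lowest of all livers and Gα12 KO replicate 1 lay between WT replicates 1 and 3. The difference of -1.73 was the most negative of the members, but its SE was 0.82 and limma's adjusted p was 0.244. Its SD was 1.72 in Gα12 KO livers and 0.69 in WT livers (n = 3 each). The difference was -1.94 without WT replicates 1 and 2, and -0.82 without Gα12 KO replicate 3.

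Cyp4a10 had 4.11, 3.71 and 2.86 in Gα12 KO livers, against 3.80, 4.07 and 4.39 in WT livers, a difference of -0.53 (SE 0.41) and of -0.83 without WT replicates 1 and 2. Cyp4a31 had 3.93, 3.67 and 2.73 in Gα12 KO livers, against 3.56, 3.93 and 4.35 in WT livers, a difference of -0.50 (SE 0.42) and of -0.90. These genes are close paralogs, so their signals may share transcripts and count as uncertain for either gene alone. In all 3 genes WT replicate 3 was above every Gα12 KO liver, as for 32.6% of all named genes. Gα12 KO replicate 3 was the lowest liver in each. That liver also had the highest summed signal of skeletal muscle markers, with a log2 of 3.78, and the part of this in the Cyp4a values was not tested. For Cyp4a10 the other probes differed by -0.56 (SE 0.50) and 1.40 (SE 0.90), and for Cyp4a31 by 1.87 (SE 0.81) and 0.97 (SE 1.05), with WT replicates 1 and 2 lowest on those positive ones. On those 3 probes the SD was 0.40 to 0.60 in Gα12 KO livers and 1.77 to 2.35 in WT livers, the reverse of the brightest probes. Averaged over probes, the differences were 0.10 for Cyp4a10 and 0.78 for Cyp4a31, and after quantile normalization -0.09 and -0.08.

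Aldh3a2 encodes the microsomal fatty aldehyde dehydrogenase. It had 0.94, 0.53 and 0.66 in Gα12 KO livers, against -1.99, -1.42 and 2.03 in WT livers. WT replicates 1 and 2 lay far below and WT replicate 3 above every Gα12 KO liver, so that the difference was 1.17 (SE 0.96) with all arrays and -1.32 without WT replicates 1 and 2 (limma unadjusted p = 0.0062, adjusted p = 0.603). Vnn1, a pantetheinase anchored at the cell surface and linked to coenzyme A turnover, differed by -0.12 with a 95% interval from -1.09 to 0.85, by 0.02 with median scaling over the probes kept and by -0.40 without WT replicates 1 and 2. Gα12 KO replicate 3 was its lowest liver too.

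**Figure D3:**
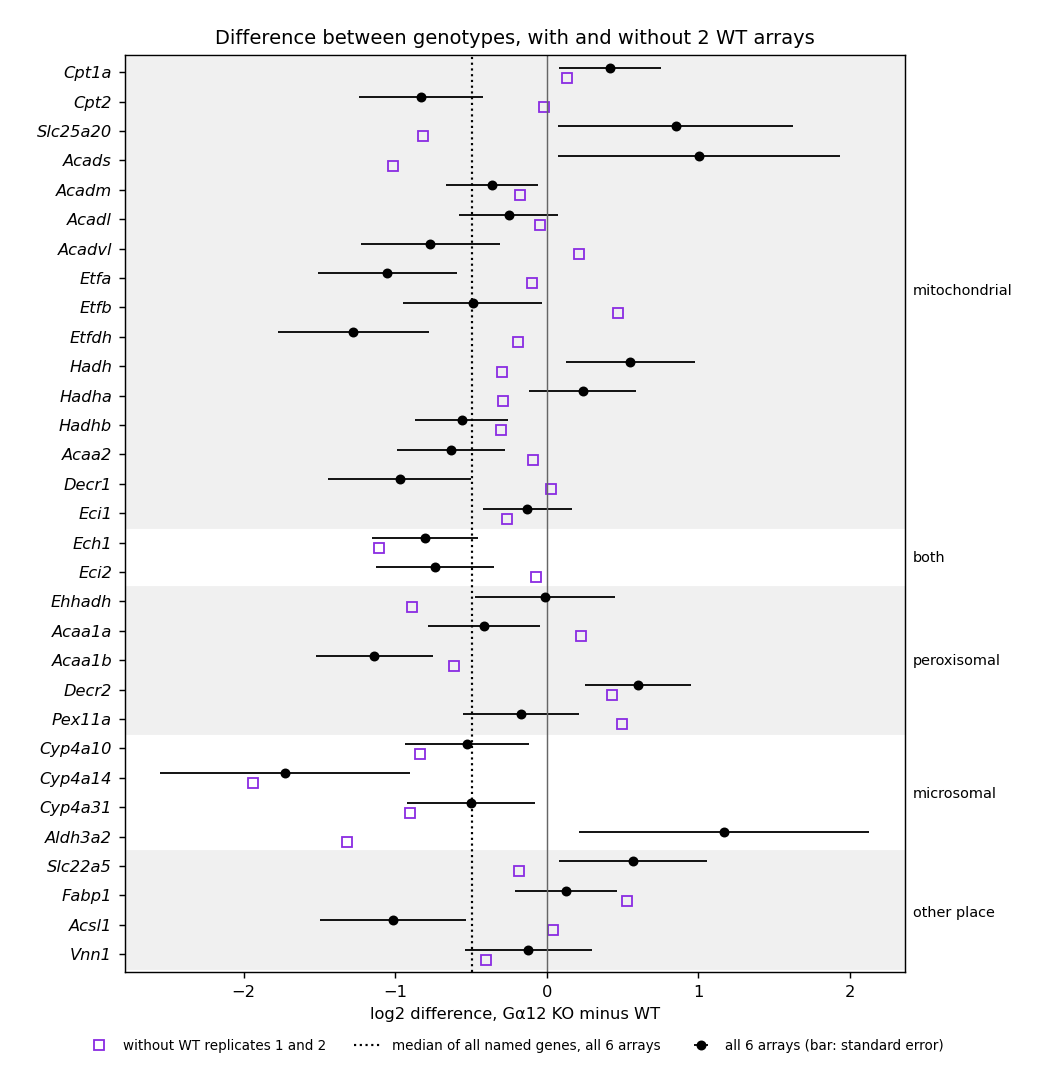
Difference of each member, Gα12 KO minus WT on the log2 scale. Black points are the fit with all 6 arrays with its standard error, open squares the fit without WT replicates 1 and 2, and the dotted line the median of all named genes at -0.49. Of the 31 members, 19 keep their sign in both fits, among them Ech1, Acaa1b and the Cyp4a genes (negative) and Decr2 (positive). The other 12 change sign, among them Aldh3a2, Acads and Slc25a20.

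Set side by side, the compartments had medians of -0.43 for the 16 mitochondrial, -0.17 for the 5 peroxisomal and -0.51 for the 4 microsomal members, beside -0.49 over all named genes. Negative differences made up 11 of 16, 4 of 5 and 3 of 4 of them (68.8%, 80% and 75%, beside 72.3% of all named genes). Every Gα12 KO liver lay below every WT liver in 4 mitochondrial, 1 peroxisomal and 0 microsomal members. These shares were 25%, 20% and 0%, beside 21.1% of all named genes. Without WT replicates 1 and 2 the medians were -0.14, 0.23 and -1.11, beside -0.03 over all named genes. WT replicate 3 was then above all 3 Gα12 KO livers for 9 of 16 mitochondrial, 2 of 5 peroxisomal and 4 of 4 microsomal members, beside 32.6% of all named genes, and below them for 2, 3 and 0, beside 26.8%. After quantile normalization the mitochondrial, peroxisomal and microsomal medians with all arrays were 0.05, 0.32 and -0.09, beside -0.21 over all named genes, and with probes of a gene averaged the microsomal median was 0.44. With Ech1 and Eci2 counted as peroxisomal the median of that group was -0.41 with all arrays. The microsomal median was the lowest and the peroxisomal the highest in each of these settings except with probes averaged, where the microsomal was the highest. Without WT replicate 3 the mitochondrial median was the lowest, at -0.57, with -0.50 for the peroxisomal and -0.34 for the microsomal members. A difference between compartments was not tested.

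At an unadjusted p below 0.05, the fit without WT replicates 1 and 2 held 4 members, all lower in Gα12 KO livers (12.9%, against a background of 4.06% of all named genes): Ech1, Aldh3a2, Ehhadh and Acads. None passed after adjustment (limma, lowest adjusted p = 0.603). It compares 3 livers with 1, and that WT liver is assumed to vary like the Gα12 KO livers. Etfdh and Acaa1b, the members at that level with all arrays, were not among these 4.

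**Figure D4:**
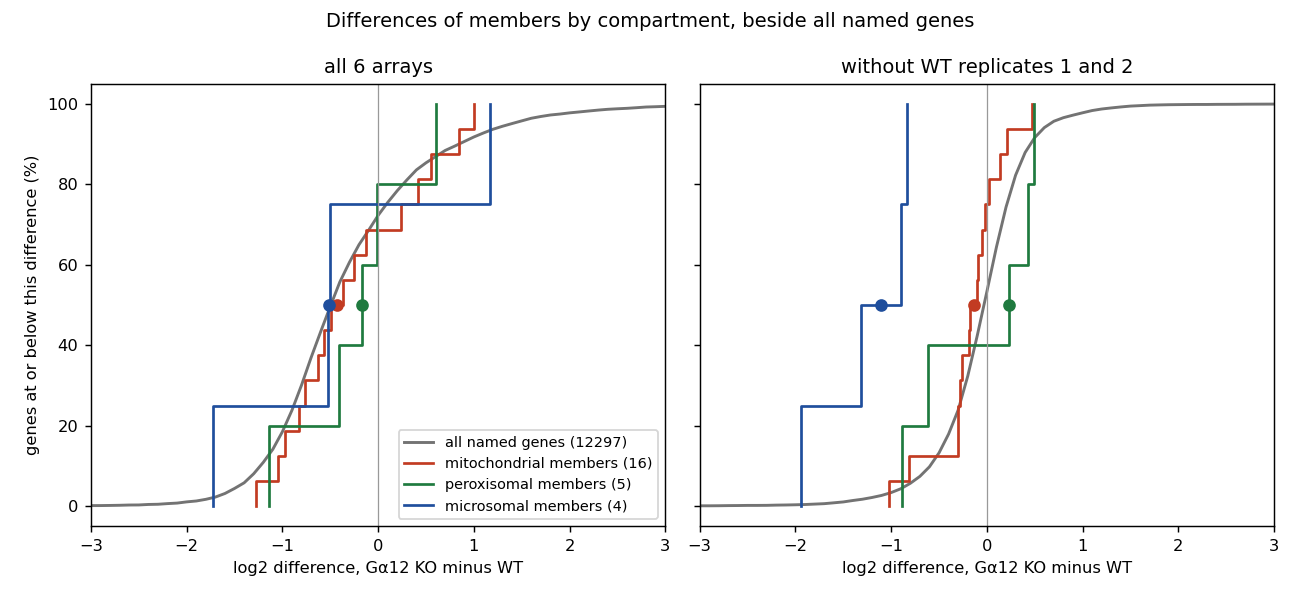
Cumulative share of genes (percent) by their log2 difference, Gα12 KO minus WT, with all 6 arrays (left) and without WT replicates 1 and 2 (right). The grey curve is all 12297 named genes, coloured steps are mitochondrial, peroxisomal and microsomal members, and dots mark the compartment medians. On the left the medians are -0.43 (mitochondrial), -0.17 (peroxisomal) and -0.51 (microsomal), beside -0.49 over all named genes. On the right the microsomal steps lie left of the grey curve, with a median of -1.11 beside -0.03. The peroxisomal median there is 0.23 and the mitochondrial one -0.14.

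Other genes of the pathway, from a list of 72 that excludes the members, had a median difference near that of the members (-0.41). Of these, 68 were measured, with a median difference of -0.47, and of -0.09 without WT replicates 1 and 2. At an unadjusted p below 0.05, 11 were lower (16.2%, background 16.6%) and 2 higher (2.94%, background 3.98%) in Gα12 KO livers, and limma called 0 after adjustment. Every Gα12 KO liver lay below every WT liver for 19 (27.9%, background 21.1%) and above for 5 (7.35%, background 4.42%). The members had lower shares: 6.45% lower and 0% higher at that p, and 19.4% and 3.23% without overlap. Those with the lowest p included Acad11, an acyl-CoA dehydrogenase (-1.15, SE 0.38), Hacl1, which acts in peroxisomal alpha oxidation (-1.16, SE 0.42), Acsm3, a medium-chain acyl-CoA synthetase (-1.11, SE 0.39), and Acsl3, a long-chain one (-2.24, SE 0.70). Acad9, another acyl-CoA dehydrogenase, differed by -0.99, SE 0.36. Mmut, the mutase that handles the end product of odd chains, differed by -1.03, SE 0.35. Without WT replicates 1 and 2 these values were smaller: -0.52 for Acad11, -0.42 for Hacl1, -0.39 for Acsm3, -0.54 for Acsl3, -0.42 for Acad9 and -0.56 for Mmut. Acsl6 was well above background on 3 WT arrays and 0 Gα12 KO arrays, so it was kept through the WT livers alone. Its difference of -1.61 (SE 0.44) therefore has no exact value, and it was -1.05 without WT replicates 1 and 2.

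The list's lowest p among higher values was that of Cpt1b, the form of the outer membrane transferase known from muscle. It had -2.56, -2.21 and -2.19 in Gα12 KO livers, against -4.34, -3.89 and -2.65 in WT livers. It was well above background on 3 Gα12 KO arrays and 1 of 3 WT arrays, so its difference has no exact value. The fitted difference was 1.31 (SE 0.47), or 0.33 without WT replicates 1 and 2. The list's other gene that was higher at an unadjusted p below 0.05 was also well above background on only 1 of 3 WT arrays. Of the skeletal muscle markers, 8 of 14 listed were measured. For 4 of these every Gα12 KO liver was above every WT liver (50%, against 4.42% of all named genes). These were Tnnc2, Acta1, Tnni2 and Myh2, named here after their values were seen. Tnnt3, Atp2a1, Mb and Pvalb overlapped between the groups, and Pvalb differed by -0.16. Myh2 was well above background on 1 of 3 Gα12 KO arrays and 2 of 3 WT arrays. Tnnc2 was so on 3 of 3 Gα12 KO arrays and Acta1 on 2 of 3, against 1 of 3 WT arrays each. Tnnc2 and Acta1 were thus kept mainly through the Gα12 KO livers, where they were higher. Only Tnni2 among the 4 was well above background on all arrays. The share of 50% therefore rests in part on values near background and cannot be weighed against the 4.42%. The log2 of the summed signal of the 8 markers was 1.51, 2.65 and 3.78 in Gα12 KO replicates 1 to 3. In WT replicates 1 to 3 it was 1.96, 1.17 and 1.19, so that WT replicate 1 lay above Gα12 KO replicate 1. For Cpt1b, WT replicate 1 was the lowest liver. Ckm, Myh1, Myh4, Mylpf, Myl1 and Actn3 were not among the probes kept. The part of muscle RNA in the value of Cpt1b, or of any member, was not tested. Sinusoidal endothelial and stellate markers had medians of -0.78 and -0.87, Kupffer and macrophage, cholangiocyte, adipocyte, red blood cell and lymphocyte markers medians of -0.57 to 0.085, and hepatocyte markers a median of 0.04. Without WT replicates 1 and 2 the medians were -0.22 for sinusoidal endothelial, -0.27 for stellate, 0.51 for hepatocyte and 1.31 for skeletal muscle markers, the last beside 2.0 with all arrays.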

How the data were processed

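Total liver RNA of 3 Gα12 KO and 3 WT mice was labelled with Cy3 from 0.5 µg and hybridised to 1 array each, per the labels' protocols. The deposited scanner tables hold intensity per spot (background-subtracted processed signal), extracted by the authors with Agilent Feature Extraction 10.7.3.1, per the submitters' processing notes. The authors' deposited value table holds log2 values and served as an alternative. Per array, log2 of the processed signal minus its 75th percentile over non-control spots was taken, without spots marked as outliers, and spots of a probe were averaged. A probe was kept if 3 or more of the 6 arrays had it well above background (23132). Differences were tested in limma 3.58.1 (R 4.3.3) with lmFit and eBayes, two-sided, with Benjamini-Hochberg adjustment over the probes kept and a threshold of 0.05. The number of arrays limits the precision. Accessions were matched to RefSeq GRCm38 symbols (26762 probes named), and the brightest probe kept stood for a gene. All 40 member probes were kept, and 38 were well above background on all 6 arrays, so the filter removed no member.

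Same-numbered replicates did not deviate together (correlations of -0.13, 0.009 and -0.043), so the numbers were not used as pairs. Every member was named under its role, with values on every array for members whose groups did not overlap, whose unadjusted p was below 0.05 or that were listed for their role, and for some others where an array stood apart. Of the other pathway genes, the 8 with the lowest p were named. Members and lists were chosen with earlier results of these data known. The fit was tested on simulated data. Alternatives covered background correction (normexp, offset 50, on the median signal, since the mean signal planned for it was not used here), scaling, filters, probe choice, variance model, replicate block and arrays left out. Promoters are 250 bases from RefSeq, for 25 of 31 members.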

Additional observations from a re-analysis of the deposited data

How the results depend on the processing

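Of the 31 genes, 21 kept the sign of their difference in every alternative run for them with all 6 arrays, 8 kept it in each of the 16 alternatives run, and Cpt1a and Acaa2 in each of the 15 that could be run for them. The count of members called was 0 in each alternative except without WT replicate 3; leaving out single arrays gave 0 to 15. The same range was 0 to 12 for members lower at an unadjusted p below 0.05 (2 with all arrays), 0 to 4 for members higher at that level (0 with all arrays) and 6 to 15 for members with every Gα12 KO liver below every WT liver (6 with all arrays). The first of these counts was 9 after normexp (29%, beside 21.1% of all named genes), and 4 each with the deposited log2 values (14.3% of 28 genes, beside 18.6%), with only probes well above background on all arrays (12.9%, beside 18.8%), with trend and robust estimation (12.9%, beside 17.2%), and without WT replicates 1 and 2 (12.9%, beside 4.06%). The second was 1 after quantile normalization (3.23%, beside 4.47%). The last was 2 with scaling to the median of the probes kept (6.45%, beside 16.2%), and 17 without WT replicates 1 and 2 (54.8%, beside 32.6%), where a single WT liver remains. The replicate block gave 3 members lower at an unadjusted p below 0.05 and 0 called, and changed no call. Over all probes, 1 was called after normexp, 2 with the stricter filter and 7 genes with probes averaged, against 0 of 23132.

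The median difference of the members (-0.41) was -0.030 after quantile normalization, -0.16 with probes of a gene averaged, -0.18 without WT replicates 1 and 2, and -0.47 to -0.18 with 1 array left out. The mitochondrial median (-0.43) was 0.054, -0.21 and -0.14 under the first 3 of these, and -0.57 to -0.30 with 1 array left out. The peroxisomal median (-0.17) was 0.32 after quantile normalization, 0.23 without WT replicates 1 and 2, -0.41 with Ech1 and Eci2 added, and -0.50 to -0.086 with 1 array left out. The microsomal median (-0.51) was 0.44 with probes averaged, -0.087 after quantile normalization and -0.77 to -0.16 with 1 array left out.

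Signs turned after quantile normalization for Acadm (0.14), Acadl (0.19), Eci1 (0.38), Ehhadh (0.42), Acaa1a (0.10) and Pex11a (0.32). Scaling to the median of the probes kept turned Eci1 (0.011), Ehhadh (0.13) and Vnn1 (0.017), and normexp turned Ehhadh (0.029). Averaging probes turned Cpt2 (0.52), Cyp4a10 (0.10) and Cyp4a31 (0.78). Without WT replicates 1 and 2 the sign turned for Slc25a20 (-0.81), Acads (-1.02), Acadvl (0.21), Etfb (0.47), Hadh (-0.30), Hadha (-0.29), Decr1 (0.027), Acaa1a (0.23), Pex11a (0.49), Aldh3a2 (-1.32), Slc22a5 (-0.18) and Acsl1 (0.043). With 1 array left out, Acads ranged from -0.083 to 2.01, Ehhadh from -0.37 to 0.43, Pex11a from -0.50 to 0.017, Fabp1 from -0.079 to 0.31 and Vnn1 from -0.43 to 0.16. Apart from what fewer arrays or probes bring by construction, the cause was not tested. Of the 40 probes, 38 were well above background on all arrays, and a dimmer probe each of Cpt2 and Cyp4a31 was not on WT replicate 1.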
